A study of Mus musculus with 6 samples.

Results

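Aminoacyl-tRNA synthetases are the enzymes that load each amino acid onto its transfer RNA before the ribosome can use it. Their transcripts were examined here in sorted blood endothelial cells of mouse intestine. The set was given as 36 gene symbols, 20 for enzymes of the cytosol and 16 for enzymes of the mitochondrion, and a gene entered when the platform annotation gave it a probe set shared with no other gene. This held for 34 of the 36, or 18 cytosolic and 16 mitochondrial genes, out of 22180 genes with a probe set of their own. Aars had a probe set shared with Exosc6, and Dars was not analysed here. Nars2 had 2 probe sets, of which the one with the higher mean over the 6 arrays was used, and each of the other 33 genes had 1.

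All mice were on a mixed C57BL/6 x 129 background and carried floxed Apc, a negative regulator of Wnt signalling. The mice of the 3 knockout replicates (Apcfl//fl; Villin-CreERT2) also carried a tamoxifen-inducible Cre driven by the villin promoter of intestinal epithelial cells. The labels of the 3 control replicates (WT, Apcfl//fl) name no Cre. Mice of both groups were given tamoxifen on 5 days and their intestines were collected on day 6, and the labels give no age. Endothelial cells were sorted as CD31-positive cells without CD45, EpCAM or gp38, their RNA was amplified, and each biological replicate was hybridised to 1 Affymetrix Mouse Gene 2.0 ST array. The comparison therefore asks how endothelial transcripts differ when the neighbouring epithelium, not the endothelium, has lost Apc.

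Each amino acid has its own synthetase, and most eukaryotic cells keep separate nuclear genes for the cytosolic and the mitochondrial enzyme. Gars and Kars are exceptions, since each gene supplies both compartments. When a tRNA stays uncharged, the kinase GCN2 (gene Eif2ak4) phosphorylates eIF2, translation of the transcription factor ATF4 rises, and ATF4 in turn raises amino acid transporters, asparagine synthetase and many of the cytosolic synthetases. Proliferating and sprouting cells also raise protein synthesis, and with it the demand for charged tRNA.

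Array values are log2 signals, so a difference of 1 is a 2-fold difference, and levels of different genes cannot be set against each other on arrays. Of all genes, 15287 had a mean above background, taken as a log2 value of 4.12 from olfactory, vomeronasal and taste receptor genes, and were tested with limma. All 34 synthetase genes passed this filter and lay above that level on all 6 arrays. Apc changed by -0.16 ± 0.14 (SE), with overlapping groups, but it was deleted in another cell type, so this value is no check of the labels. Correlations between arrays were 0.979 to 0.984 within the knockout group, 0.977 to 0.984 within the controls and 0.964 to 0.974 across groups. The CD31 gene Pecam1 averaged 11.4 in each group. Of 10 endothelial markers, Pecam1 among them, 1 was lower by limma (Cldn5, -1.28, adjusted p = 0.0137) and 0 higher. Over all genes 1.48% were lower and 1.13% higher. Groups did not overlap for 3 higher and 2 lower endothelial markers, against 9.79% and 12.3% of all genes. The gp38 gene Pdpn averaged 5.11 in the knockout and 5.42 in the control, with overlapping groups. Ptprc, which encodes CD45, averaged 4.14 in the knockout and 4.46 in the control.

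Epithelial transcripts differed between the groups and among the controls. The mean of 14 enterocyte markers ranged from 5.00 to 5.43 on the knockout arrays and from 6.83 (control 1) to 8.97 on the control arrays, and 12 of the 14 were lower in the knockout by limma. Epcam was below background on the 3 knockout arrays and in control 1, and at 7.20 and 6.24 in controls 2 and 3. The mean of 10 mural markers was 7.71 to 8.09 in the knockout and 8.58 to 8.88 in the control, with 6 of 10 lower. Among 7 T and NK cell markers 1 was lower by limma and 5 were lower at an unadjusted p of 0.05, and all 7 changes were negative. Among 6 lymphatic markers 2 were higher by limma, Flt4 (0.65) and Lyve1 (1.13). The other 4 did not pass, Prox1 at 0.056 and Pdpn at -0.30 among them. Over all genes 1.48% were lower and 1.13% higher by limma, and 9.23% were lower at an unadjusted p of 0.05. Fewer cells of a type and less RNA per cell cannot be told apart in such bulk samples.

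Most cytosolic synthetases had higher values in the knockout, 1 of them past the test, while mitochondrial ones lay on both sides of the controls. Of 18 cytosolic genes, 17 had a positive log2 change, and the median change was 0.30. Of 16 mitochondrial genes, 7 had a positive change, and the median was -0.018. Over all genes tested, 46.7% had a positive change and the median was -0.017. With arrays centred on their median instead, positive changes numbered 18 of 18 cytosolic and 12 of 16 mitochondrial genes. That scaling moved the median of all genes to 0.068, and the mitochondrial median of 0.067 was near it. The sign of single mitochondrial changes near 0 thus depended on the scaling. The counts also depended on signal level. When only genes above the 99th percentile of the receptor genes were tested, 7 of the 16 mitochondrial genes remained. Of these 7, 5 had a positive change, with a median of 0.12, against 0.30 for the cytosolic genes. The difference between the compartment means was then 0.24.

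By limma 1 cytosolic gene rose at an adjusted p of 0.05, Iars, 0 fell and 17 did not pass, against 2.61% of all genes passing (1.13% higher and 1.48% lower). No mitochondrial gene passed in either direction. The 1 call in 34 synthetases was thus near the background share. At an unadjusted p of 0.05, 9 of 18 cytosolic genes were higher and 0 lower, against 7.20% and 9.23% of all genes. The mitochondrial enzymes held 0 higher and 1 lower gene at that level. The 3 knockout values lay above the 3 control values for 7 of 18 cytosolic and 1 of 16 mitochondrial genes, against 9.79% of all genes. They lay below for 0 cytosolic and 2 mitochondrial genes, against 12.3% of all genes.

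**Figure D1:**
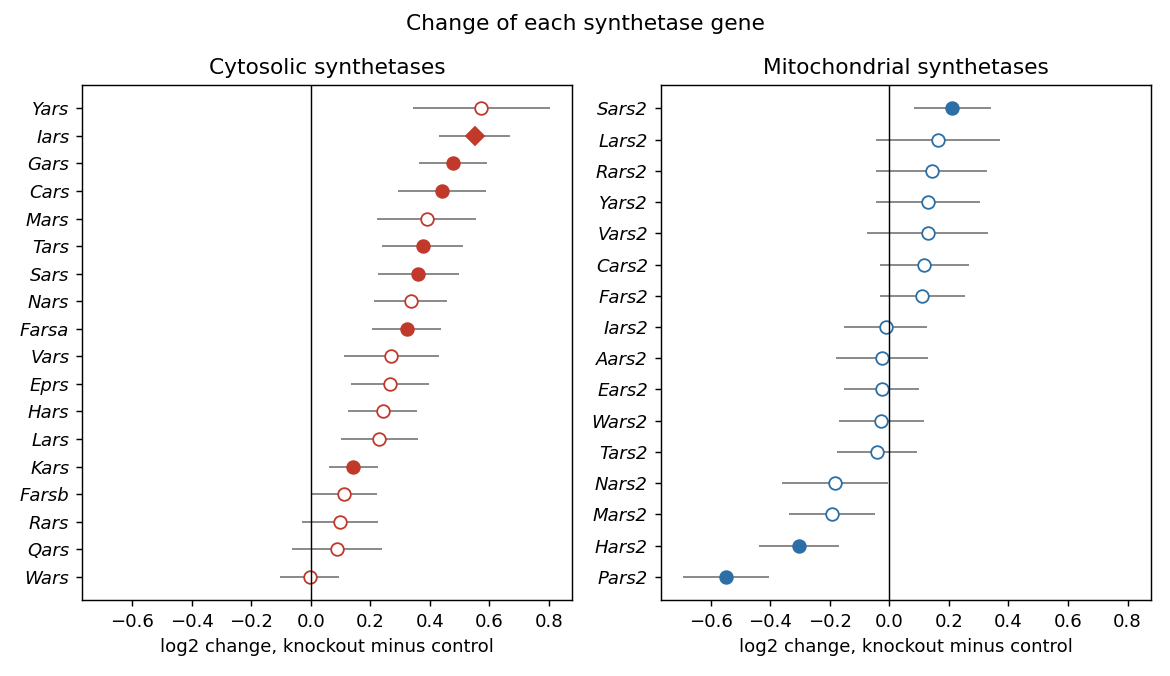
Log2 change (knockout minus control, x axis) of the 18 cytosolic (left) and 16 mitochondrial (right) synthetase genes, with bars for 1 standard error of the limma fit; filled symbols mark genes whose 3 knockout and 3 control values do not overlap, and the diamond marks Iars, the gene that passed at an adjusted p of 0.05. All but 1 of the cytosolic genes lie right of 0, while the mitochondrial genes lie on both sides of it, from -0.55 for Pars2 to 0.21 for Sars2.

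Iars encodes the isoleucyl enzyme, a class I synthetase of the multisynthetase complex, the assembly in which several cytosolic synthetases are held together by scaffold proteins. It measured 8.10, 7.91 and 8.19 on the knockout arrays and 7.36, 7.59 and 7.60 on the control arrays. Every knockout value thus exceeded every control value, with means of 8.07 ± 0.14 and 7.52 ± 0.14 (SD, n = 3 each). The rise was 1.47-fold (log2 change 0.55 ± 0.12 SE, adjusted p = 0.0497 by limma). The value lay just inside the threshold. Leaving out any 1 of the 6 arrays ended the call, with changes of 0.47 to 0.63 and adjusted p from 0.0612 to 0.170, as did cyclic loess, no background filter and no variance trend (adjusted p from 0.0531 to 0.089).

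Gars, the glycyl enzyme that serves both cytosol and mitochondrion, came next. Its values were 8.91, 9.11 and 9.33 in the knockout and 8.71, 8.67 and 8.54 in the control. The groups did not overlap, and knockout 3 was the highest. The change of 0.48 ± 0.11 did not pass (adjusted p = 0.0656). It passed under median centring (0.56, adjusted p = 0.0369) and when only brighter genes, above the 99th percentile of the receptor genes, were tested (adjusted p = 0.0431).

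Cars, the cysteinyl enzyme, stood at 7.26, 7.01 and 7.52 in the knockout against 6.92, 6.80 and 6.75 in the control, a change of 0.44 ± 0.15 (adjusted p = 0.176). The threonyl enzyme gene Tars stood at 7.20, 7.47 and 7.61 against 6.98, 7.18 and 6.99, a change of 0.38 ± 0.14 (adjusted p = 0.208). In both genes the lowest knockout array was above the highest control, for Tars by a narrow margin. The seryl enzyme gene Sars measured 8.56, 8.67 and 9.04 against 8.46, 8.50 and 8.24, and changed by 0.36 ± 0.14 (adjusted p = 0.222). Its groups did not overlap either, and knockout 3 again held the highest value.

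Yars, the tyrosyl enzyme, had the largest difference of the set but also the largest spread. It was at 6.53, 6.78 and 7.38 in the knockout and at 6.10, 6.64 and 6.23 in the control. Knockout 1 lay below control 2, so the groups overlapped, and the change was 0.57 ± 0.23 (adjusted p = 0.255). Nars, the asparaginyl enzyme, was at 9.21, 8.98 and 9.46 against 8.85, 8.98 and 8.81, with knockout 2 level with control 2 and a change of 0.34 ± 0.12 (adjusted p = 0.211).

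Phenylalanyl-tRNA synthetase is built from an alpha subunit (Farsa) and a beta subunit (Farsb). Farsa measured 7.20, 7.15 and 7.31 in the knockout and 6.91, 6.99 and 6.79 in the control, without overlap, and changed by 0.32 ± 0.12 (adjusted p = 0.201). Farsb changed by 0.11 ± 0.11 (adjusted p = 0.673), with control 2 above knockouts 2 and 3. Whether the subunits differed from each other was not tested.

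The remaining cytosolic genes did not pass. Mars, the methionyl enzyme, was at 0.39 ± 0.17 (adjusted p = 0.284), and Vars, Eprs, Hars and Lars, for the valyl, joint glutamyl-prolyl, histidyl and leucyl enzymes, were between 0.23 and 0.27 with overlapping groups. Kars, the lysyl enzyme of both compartments, changed by 0.14 ± 0.083 (adjusted p = 0.45), with knockout values of 8.82, 8.88 and 8.89 just above control values of 8.67, 8.82 and 8.68. Rars and Qars, for the arginyl and glutaminyl enzymes, changed by 0.098 and 0.088.

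Wars was the lowest of the cytosolic changes. It encodes the tryptophanyl enzyme, which is known as an interferon-gamma-inducible gene. Its values were 10.60, 10.64 and 10.56 in the knockout and 10.37, 10.63 and 10.80 in the control, with the knockout arrays inside the control range and a change of -0.0037 ± 0.099 (adjusted p = 0.991). Its sign turned to positive under median centring (0.081). Of 17 tested interferon-gamma targets, fixed as a list without Wars, 5 fell, 0 rose and 12 did not pass, against 1.48% of all genes lower and 1.13% higher, with a median of -0.41. The falls were the guanylate-binding gene Gbp5 (-1.03), the GTPase genes Igtp (-0.82) and Irgm2 (-0.52), the immunoproteasome gene Psmb9 (-0.41) and the transcription factor gene Irf1 (-0.49), with adjusted p from 0.00877 to 0.0406. Of these 5 calls, Gbp5 held when any 1 array was left out, while Irf1 and Irgm2 were lost in every case. Igtp was lost without knockout 3 or control 3, and Psmb9 without knockout 3, control 2 or control 3. Between the same groups 12 of 14 enterocyte and 1 of 7 T and NK cell markers fell, and their part in these falls was not tested.

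**Figure D2:**
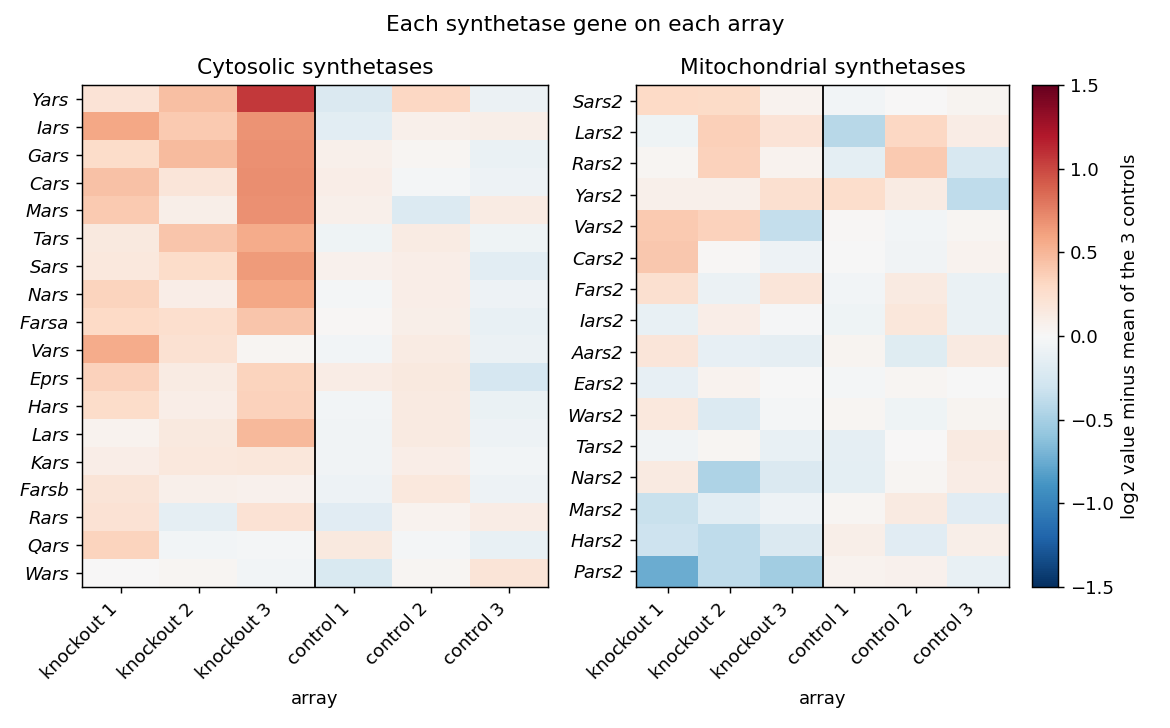
Each cell is the log2 value of a synthetase gene (rows, ordered by change) on an array (columns), minus that gene's mean over the 3 controls, with red above and blue below. The cytosolic genes are mostly red on the 3 knockout arrays and on average deepest on knockout 3, while the mitochondrial block is bluest for Pars2 and Hars2 on the knockout arrays and mixed elsewhere.

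Averaged over the 18 cytosolic genes, the knockout arrays lay 0.27, 0.19 and 0.42 above the control mean, and the control arrays at -0.031, 0.081 and -0.050 around it. The 3 knockout arrays were thus all above the controls, knockout 3 most and knockout 2 least. The same means for the 16 mitochondrial genes were 0.012, -0.013 and -0.064 in the knockout and -0.032, 0.055 and -0.023 in the control, and the groups overlapped. The cytosolic mean minus the mitochondrial mean was 0.26, 0.20 and 0.48 in the knockout and 0.0015, 0.026 and -0.028 in the control, a difference of 0.31. No p is given for these averages, because the genes were chosen with results of these data known. Without Gars and Kars, which serve both compartments, the cytosolic median was also 0.30, with 15 of 16 changes positive.

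Synthetases fall into 2 structural classes, which differ in the fold of the catalytic domain. The median change was 0.27 for the 10 cytosolic class I genes and 0.33 for the 8 cytosolic class II genes. In the mitochondrial set it was 0.12 for the 9 class I and -0.041 for the 7 class II genes. The 7 measured enzymes of the multisynthetase complex had a median of 0.23, with 7 of 7 positive, and the other 11 cytosolic genes had a median of 0.34, with 10 of 11 positive. Of the scaffold proteins of that complex, Eef1e1 changed by 0.22 ± 0.14 (adjusted p = 0.501) and Aimp1 by 0.12 ± 0.14 (adjusted p = 0.727), and neither passed.

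Cytosolic synthetases that are commonly listed as ATF4 targets were set apart from the rest. The 11 measured genes of that kind (Cars, Eprs, Gars, Iars, Lars, Mars, Nars, Sars, Tars, Wars and Yars) had a median change of 0.38, and 8 of them had an unadjusted p under 0.05, against 16.4% of all genes (7.20% higher). The other 7 (Farsa, Farsb, Hars, Kars, Qars, Rars and Vars) had a median of 0.14, and 1 had such a p, a share near that of all genes. The means of the first group on the knockout arrays were 0.27, 0.24 and 0.58, and those of the second were 0.28, 0.092 and 0.17. Knockout 3 stood highest in the ATF4-listed group and knockout 1 in the other, and whether the groups differ was not tested.

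The promoter windows of these genes are shown because the C/EBP-ATF response element, the DNA motif bound by ATF4 with its partners, is spelled by a short run of letters. RefSeq windows of 300 bases (GRCm38.p6, 250 before to 50 after an annotated start) were matched by symbol for 25 of the 34 measured genes. Of these 11 were cytosolic and 14 mitochondrial. The motif TGATGNAA was searched on both strands (TTNCATCA on the other). It was found for 4 of the 11 cytosolic genes and 0 of the 14 mitochondrial genes, against 3.97% of all 32851 windows. Aars2 had 2 windows and counts as 1 gene. Those 4 genes were Iars, Gars, Tars and Yars, with changes from 0.38 to 0.57. The 7 cytosolic genes with a window and no match, Farsa, Farsb, Sars, Mars, Eprs, Kars and Qars, changed by 0.088 to 0.39. Cars, Hars, Lars, Nars, Rars, Vars and Wars had no window and were not searched. Their changes ran from -0.0037 (Wars) to 0.44 (Cars). Stretches of 30 bases on the gene's strand follow, with the motif in capitals, together with that of Asns, the asparagine synthetase gene and a well-known ATF4 target.
Iars (chr13:49682126-49682155, plus strand, motif at 8 to 15 after the start): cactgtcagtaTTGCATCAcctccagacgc
Gars (chr6:55037960-55037989, plus strand, motif at -30 to -23): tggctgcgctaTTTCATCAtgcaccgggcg
Tars (chr15:11399655-11399684, minus strand, motif at -15 to -8): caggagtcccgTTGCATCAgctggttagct
Yars (chr4:129189895-129189924, plus strand, motif at 4 to 11 after the start): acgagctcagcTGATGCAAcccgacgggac
Asns (chr6:7693214-7693243, minus strand, motif at -23 to -16): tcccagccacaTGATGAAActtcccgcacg
In Iars, Gars and Tars the motif reads on the opposite strand, and in Yars and Asns on the strand of the gene. The Yars positions count from the annotated start within its window. That annotated start lies downstream of the first base of the gene (chr4:129189734). A match in these letters is a description of the sequence and does not show that a factor binds there.

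A second motif was searched in the same windows, the E-box CACGTG, which reads the same on both strands and is bound by MYC and related factors. It was present for 3 of 11 cytosolic genes (Iars, Tars and Farsb) and for 1 of 14 mitochondrial genes (Ears2), against 7.15% of all windows. In Iars it lay at -69 to -64 and in Tars at 20 to 25 after the start, in neither case overlapping the first motif.

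Other genes of the same pathway were described from lists, of which the one of ATF4 and its targets outside the synthetases held the most rises. Of its 27 tested genes 4 rose and 0 fell, against 1.13% and 1.48% of all genes, the median being 0.22. The glutamine transporter gene Slc1a5 measured 8.72, 8.58 and 9.24 in the knockout and 7.83, 7.66 and 7.58 in the control (1.16 ± 0.16, adjusted p = 0.0113). Asns measured 7.54, 7.98 and 8.08 against 6.70, 6.93 and 6.87 (1.03 ± 0.15, adjusted p = 0.0137). In each the groups were well apart.

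Slc7a5, the large neutral amino acid transporter, was at 6.81, 6.85 and 7.91 against 5.79, 5.49 and 5.82 (1.49 ± 0.28, adjusted p = 0.0278), and the neutral amino acid transporter Slc38a2 at 10.37, 10.39 and 10.63 against 10.15, 9.92 and 9.96 (0.45 ± 0.092, adjusted p = 0.04). Knockout 3 held the highest value in all 4 genes, as it did in the mean of the cytosolic synthetases. The calls depended on single arrays. Slc1a5 was lost without control 3 (adjusted p = 0.0513), Asns without knockout 2, knockout 3 or control 3 (up to 0.0608), Slc7a5 without knockout 2, control 2 or control 3 (up to 0.0927), and Slc38a2 without any array but control 1 (up to 0.133).

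The other 23 tested genes of the ATF4 list did not pass. Among all 27, 21 changes were positive, against 46.7% of all genes. Groups did not overlap for 9 higher and 1 lower gene, against 9.79% and 12.3%. The smallest p-values among the 23 were those of Eif4ebp1 (0.45 ± 0.11, adjusted p = 0.0758) and Slc7a1 (0.39 ± 0.12, adjusted p = 0.142). In both the groups did not overlap, and Eif4ebp1 passed under median centring. Atf4 itself was at -0.077 ± 0.076 (adjusted p = 0.679), although it is mainly regulated through translation, which arrays do not measure. The stress genes Ddit3 (-0.41, adjusted p = 0.18) and Atf3 (-0.54, adjusted p = 0.202) had negative values that did not pass. The serine synthesis genes Phgdh and Psat1 were at 0.21 each, and Trib3, an ATF4-induced pseudokinase, was at 0.18, none of them past the threshold.

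Upstream of ATF4, 1 of 14 tested genes of the eIF2 kinases and the eIF2 pathway rose, 0 fell and 13 did not pass, against 1.13% of all genes higher, with a median of 0.074. The riser was Eif2ak4, the gene of GCN2. It measured 6.93, 6.97 and 7.57 in the knockout and 6.37, 6.07 and 6.29 in the control (1.88-fold, 0.91 ± 0.19, adjusted p = 0.0406). The groups did not overlap, but leaving out any 1 array ended the call (adjusted p from 0.0573 to 0.12). The next smallest p-values in this list were those of the eIF2 beta subunit gene Eif2s2 (0.70 ± 0.17, adjusted p = 0.0706) and of Eif2ak3, the kinase PERK of the endoplasmic reticulum (0.54 ± 0.15, adjusted p = 0.107). Ppp1r15a, the stress-induced eIF2 phosphatase subunit, was at -0.39 (adjusted p = 0.173).

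Genes acting around the charged tRNA gave no calls. Of all genes, 2.61% passed by limma and 16.4% had an unadjusted p under 0.05 (7.20% higher and 9.23% lower). Among 21 genes of tRNA synthesis and export none passed by limma, and 1 was higher at an unadjusted p of 0.05, the tRNA export receptor gene Xpot (0.43 ± 0.12, adjusted p = 0.116). The median of that list was 0.11. The 6 cytosolic elongation factor genes had a median of 0.021 with 0 passing by limma and 1, Eef1g (0.19, adjusted p = 0.285), at an unadjusted p of 0.05. Of 6 genes for editing and synthetase-related proteins 0 passed by limma, and Yrdc, a tRNA modification enzyme, was at 0.39 ± 0.11 (adjusted p = 0.113), the 1 with an unadjusted p under 0.05. The 13 mitochondrial translation factor genes had a median of 0.10, with 0 passing by limma and 0 with an unadjusted p under 0.05.

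**Figure D3:**
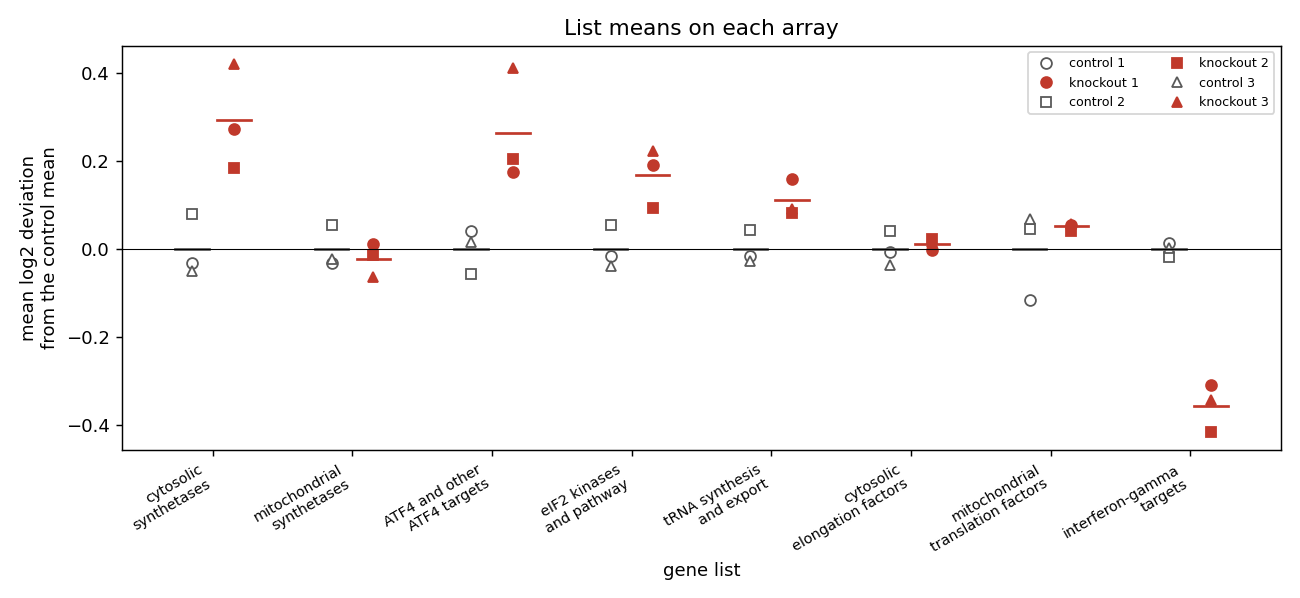
Mean log2 deviation from the control mean (y axis) for 8 gene lists (x axis), 1 point per array, red for knockout and open grey for control, with a line at each group mean. The knockout arrays lie above the controls for the cytosolic synthetases (0.19 to 0.42) and for ATF4 and its other targets (0.18 to 0.41). They also lie above the controls for the eIF2 kinases and pathway (0.093 to 0.22) and for tRNA synthesis and export (0.081 to 0.16), overlap them for the mitochondrial synthetases and the elongation factors, and lie below them for the interferon-gamma targets (-0.41 to -0.31).

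Among the mitochondrial enzymes, Pars2, for the prolyl enzyme, had the smallest p. It measured 4.37, 4.73 and 4.59 in the knockout and 5.17, 5.17 and 5.00 in the control. Every knockout value lay below every control value, and the change was -0.55 ± 0.14 (adjusted p = 0.0904), which did not pass. The cytosol has no separate prolyl gene, since Eprs joins the glutamyl and the prolyl activity in 1 protein, and Eprs changed by 0.27 ± 0.13 (adjusted p = 0.364). Hars2, for the mitochondrial histidyl enzyme, was at 6.22, 6.14 and 6.31 against 6.61, 6.35 and 6.61, also without overlap (-0.30 ± 0.13, adjusted p = 0.309). Hars and Hars2 are neighbours in the genome, and Hars was at 0.24 ± 0.12 (adjusted p = 0.348).

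Sars2, the mitochondrial seryl enzyme, had the largest positive change of its set and did not pass. It stood at 6.55, 6.54 and 6.32 in the knockout against 6.22, 6.26 and 6.30 in the control, with knockout 3 barely above control 3 (0.21 ± 0.13, adjusted p = 0.471). The methionyl gene Mars2 stood at 5.72, 5.89 and 5.98 against 6.09, 6.19 and 5.89 (-0.19 ± 0.14, adjusted p = 0.572). The leucyl gene Lars2 was at 5.84, 6.26 and 6.10 against 5.48, 6.21 and 6.02 (0.16 ± 0.21, adjusted p = 0.754). Both had overlapping groups, and Lars2 turned to -0.046 without control 1.

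Nars2, the mitochondrial asparaginyl enzyme, measured 5.94, 5.33 and 5.59 in the knockout and 5.65, 5.83 and 5.91 in the control on its brighter probe set (-0.18 ± 0.18, adjusted p = 0.678). Its dimmer probe set measured 5.08, 4.92 and 5.26 against 4.69, 4.85 and 4.66 (0.35 ± 0.14, adjusted p = 0.263). The 2 probe sets thus had opposite signs, and no direction is given for this gene. The other 10 mitochondrial genes changed by -0.041 to 0.14, each with overlapping groups, from Tars2 at the lower end to Rars2 at the upper end.

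For 12 amino acids a cytosolic and a mitochondrial gene of matching symbol, such as Iars and Iars2, were measured and paired. Phenylalanine (Farsa, Farsb and Fars2), glutamate (Eprs and Ears2) and proline (Eprs and Pars2) also had genes measured for both compartments. These were not paired. The cytosolic change was the larger in 11 of the 12 pairs, with a median difference of 0.37, the exception being Rars and Rars2 (-0.044). The gap between the enzymes was larger on all 3 knockout arrays than on any control array in 4 pairs, those for isoleucine (difference in change 0.56), histidine (0.54), asparagine (0.52) and threonine (0.42). Among the 12 pairs the largest difference was that of methionine at 0.58, where the arrays overlapped. Outside the pairs, Eprs (0.27) and Pars2 (-0.55) lay farther apart than that, and Ears2 was at -0.026. Farsa changed by 0.32 and Farsb by 0.11, against 0.11 for Fars2. In the asparagine pair the value rests on the brighter Nars2 probe set. These differences are descriptions without a test.

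**Figure D4:**
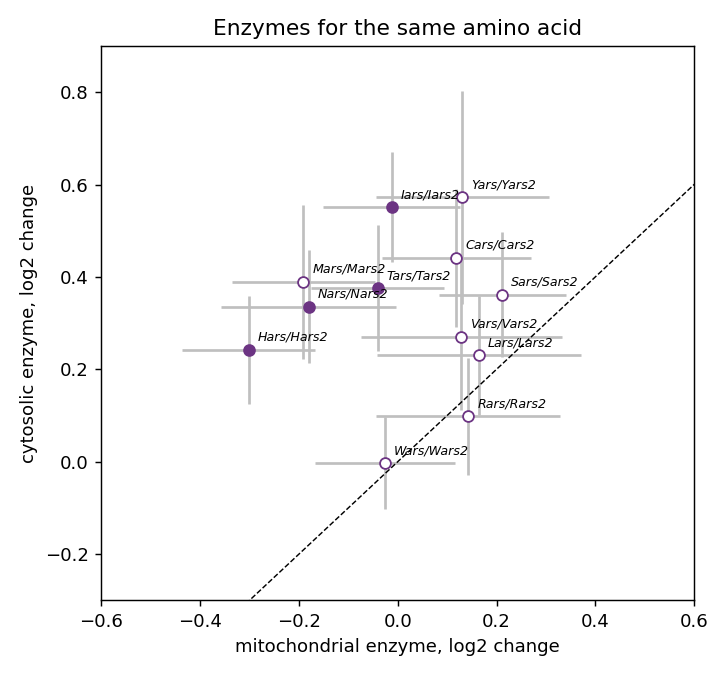
Log2 change of the cytosolic enzyme (y axis) against that of the mitochondrial enzyme for the same amino acid (x axis) in 12 pairs matched by symbol. Bars show 1 standard error, and the dashed line marks where both changes are equal. Filled points are the 4 pairs whose gap is larger on all knockout arrays than on any control array; 11 of the 12 points lie above the line.

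Epithelial cells also make synthetases, and their transcripts were lower in the knockout arrays, so the values were set beside each other. Among the 3 controls, the mean of the enterocyte markers differed by over 2 log2 units, with control 1 at -1.27, control 2 at 0.87 and control 3 at 0.40 around the control mean. The cytosolic synthetases differed among the same arrays by -0.031, 0.081 and -0.050. Against control 1 alone, the control with the fewest enterocyte transcripts, the cytosolic median was 0.30 and the mitochondrial 0.031, and the change of Iars was 0.71 (adjusted p = 0.183 in a fit where 1 control is assumed to vary like the other arrays). With the enterocyte mean as a covariate the cytosolic median was 0.33, and 17 of 18 changes were positive, but no synthetase passed and single changes moved widely. Iars was then at 0.82 (adjusted p = 0.52), Cars went from 0.44 to 0.14, Yars from 0.57 to 1.13, Tars from 0.38 to 0.61, Hars2 from -0.30 to -0.58 and Lars2 from 0.16 to 1.20. Enterocyte and mural transcripts were lower in the knockout, and 2 of 6 lymphatic markers were higher. The part of each in the synthetase values was not tested.

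**Figure D5:**
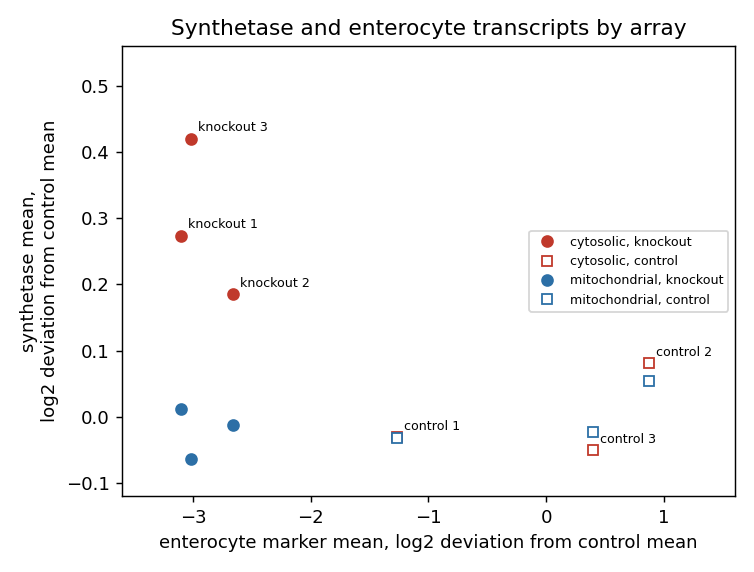
Mean of the cytosolic (red) and mitochondrial (blue) synthetases (y axis) against the mean of 14 enterocyte markers (x axis) on each of the 6 arrays, both as log2 deviation from the control mean, with filled circles for knockout and open squares for control. The controls spread from -1.27 to 0.87 along the x axis while their cytosolic means stay between -0.050 and 0.081, below the knockout arrays at 0.19 to 0.42.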

How the data were processed

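Values were the log2 signals per probe set that the authors deposited, made with RMA in the oligo package (background correction, quantile normalization, probe summary), per the submitters' processing notes; versions are not given in the sources used here. Of 41345 probe sets, 23521 had 1 gene symbol, 1814 several and 16010 none, and only the first kind was used, with the brightest probe set per gene. Array medians over all 41345 probe sets ran from 4.77 to 4.81. Median centring used the medians of the probe sets with 1 gene symbol instead, and moved the median change of all genes from -0.017 to 0.068. Arrays have no read depth, so the number of arrays limits the precision.

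Genes with a mean above the 90th percentile of 1432 receptor genes were tested with limma 3.58.1 in R 4.3.3 (lmFit, eBayes with trend, two-sided, Benjamini-Hochberg over 15287 genes, threshold 0.05). The whole table gave 173 higher and 226 lower genes, and 306 and 161 after median centring. The procedure was tested on simulated data. Plots used matplotlib 3.10.9 in Python 3.11.15. The synthetases, the other gene lists and the motifs were chosen with earlier results of these data known. Values on each array are given for called synthetases, the 8 cytosolic and 6 mitochondrial ones with the smallest p, and the extremes of each set, and other genes by the smallest p in their list; some further members are named to complete a list, and Atf4, Ddit3, Atf3, Phgdh, Psat1 and Trib3 were named after their values were seen. The labels name no batch.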

Additional observations from a re-analysis of the deposited data

Results flagged for a closer look

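The dimmer of the 2 Nars2 probe sets, which entered no comparison between the compartments, was higher on all 3 knockout arrays than on any control array, with a log2 change of 0.35. The brighter probe set of the same gene had a change of -0.18 with overlapping groups. No group was large enough for a search for single outlying arrays.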

How the results depend on the processing

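The cytosolic median stayed within 1 SD of its value under every setting tried, and between 0.23 and 0.34 when 1 array was left out. So did the difference between the compartment means (0.23 to 0.37). Called cytosolic genes numbered 2 at an adjusted p of 0.1, under median centring and with the stricter background. They numbered 0 with no background filter, with cyclic loess, without the variance trend, with the replicate block and in each case with 1 array left out. There were also 0 with control 1 as the only control or the enterocyte mean as covariate, both chosen after the data were seen. At an adjusted p of 0.1, 1 mitochondrial gene (Pars2) was called, and otherwise 0. The mitochondrial median was 0.12 with the stricter background, which kept 7 of the 16 genes, 0.067 under median centring, 0.037 with cyclic loess, 0.037 with probe sets averaged, 0.031 with control 1 alone, 0.059 with the covariate and -0.027 to 0.031 with 1 array left out. Called genes in all numbered 139 without the trend, 768 at 0.1, 52 with control 1 alone, 3 with the covariate and 91 to 379 with 1 array left out. With the replicate number as a block 394 were called and Iars was not; the numbers are shared labels only (correlations of deviations of same-numbered arrays -0.020, -0.0078 and 0.039). Called pathway genes, 10 in all, numbered 4 without the trend, 0 with the covariate and 1 to 7 with 1 array left out. With control 1 alone 2 were called, Atf3 and Ppp1r15a, and 0 of the 10. Without control 2, 4 of the 5 called were among the 10, the other being Eif2s2. Signs turned for Wars (0.081 under median centring, 0.23 with control 1 alone, 0.45 with the covariate, and -0.12 to 0.094 with 1 array left out), for Lars2 (-0.046 to 0.32 with 1 array left out, negative without control 1) and for Nars2 (0.086 with probe sets averaged, 0.35 on the dimmer one). The cause of these shifts was not tested.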

Other observations

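The probe set shared by Aars, the alanyl enzyme gene, and Exosc6, an exosome subunit gene, measured 7.95, 7.80 and 7.95 on the knockout arrays and 7.61, 8.01 and 7.64 on the control arrays. Its values cannot be assigned to either gene. Control 2 was the highest of the 6, so the groups overlapped, and the difference between the means was 0.15. The Aars promoter window held the motif TGATGNAA at 2 places, both on the opposite strand (chr8:111033719-111033748 and chr8:111033840-111033869, GRCm38.p6, plus strand).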
